A study of Mus musculus with 6 samples.

Results

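The genes described here encode the NF-kappaB transcription factors and proteins that regulate them. The 5 Rel-family subunits are Nfkb1, Nfkb2, Rel, Rela and Relb. The regulators are the IkappaB-family genes Nfkbia, Nfkbib, Nfkbie and Nfkbiz, and Tnfaip3, which encodes the ubiquitin-editing enzyme A20. All were taken as a list of 10 gene symbols, each of which named exactly 1 of the 10041 rows of the expression table. All 10 passed the filter on low values that left 9986 rows for testing. Expression was measured by RNA-seq in mouse Th17 cultures, in 3 libraries grown with the vehicle DMSO and 3 grown with oligomycin at 2.5 ng/ml, an inhibitor of the mitochondrial ATP synthase. All 6 cultures began as naive CD4 T cells. They were stimulated for 48 h by anti-CD3e bound to the plate (10 µg/ml) and anti-CD28 (1 µg/ml), with TGFb1 at 2.5 ng/ml, IL-23 at 10 ng/ml and IL-6 at 20 ng/ml as polarizing cytokines. Strain and age of the mice are not given in the sources at hand. The comparison asks how the NF-kappaB transcripts of activated Th17 cells stand when mitochondrial ATP synthesis is inhibited.

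NF-kappaB factors are dimers of Rel-family subunits that wait in the cytoplasm of a T cell, bound to IkappaB proteins. Signals from the T cell receptor, CD28 and receptors of the TNF and IL-1 families activate the IkappaB kinase (IKK), which marks IkappaB for destruction and frees RelA and c-Rel dimers. In the slower, non-canonical route the kinase NIK has the Nfkb2 product p100 cut to p52, the partner of RelB. Several of the genes, among them those of IkappaBα and A20, are themselves switched on by NF-kappaB and so form feedback loops.

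Levels are given in FPKM, a count of sequenced fragments divided by transcript length and by the size of the library, which allow levels to be compared between genes per unit of length. The depth of sequencing is unknown and no counting error can be given. Small RNA rows took 68.84% to 75.69% of all FPKM with DMSO and 78.03% to 80.25% with oligomycin, and without them the sums ran from 407861 to 467309 FPKM. The T cell markers (Cd3e, Cd3d, Cd3g, Cd4, Cd28 and Lck, 6 of 6 measured) summed to 779 to 929 FPKM with DMSO and to 774 to 893 with oligomycin, and 1 of the 6, Cd28, was called lower. Il17a, which encodes the cytokine that defines Th17 cells, was 19.6-fold lower with oligomycin. Of the markers of other cells, 0 of 4 for B cells, 0 of 3 for dendritic cells, 1 of 6 for myeloid cells (Cd68, 1.08 to 2.07 FPKM with DMSO and 2.39 to 5.07 with oligomycin), 1 of 3 for NK cells (Klrd1, 12.8 to 34.6 and 5.53 to 23.8) and 1 of 2 for CD8 T cells (Cd8b1, 2.63 to 3.12 and 2.41 to 3.30) were in rows used here. The part of other cells in the results below was not tested. In bulk libraries fewer cells that express a gene and less of its RNA per cell cannot be told apart.

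Oligomycin cultures held less mRNA of Nfkb2 and of Nfkbie, the gene of IkappaBε, while the other 8 genes did not pass the test. Nfkb2 had a 1.80-fold lower mean and Nfkbie a 1.97-fold lower mean. With limma's moderated test on log2(FPKM + 1), adjusted over all tested genes with a threshold of 0.05, 0 of 10 genes rose and 2 of 10 fell (20%). Over all tested genes 30.2% were called, 14.0% higher and 16.1% lower, so these 10 were not called more often than genes at large. At an unadjusted p under 0.05 there were 1 gene with a higher level, Nfkbiz, and no further gene with a lower one. The median log2 change of the 10 genes was -0.10, beside -0.00442 over all tested genes. In 4 of the 10 genes (Nfkb2, Nfkbie, Tnfaip3 and Rela) the FPKM of the groups did not overlap, which held for 47.3% of all tested genes.

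**Figure D1:**
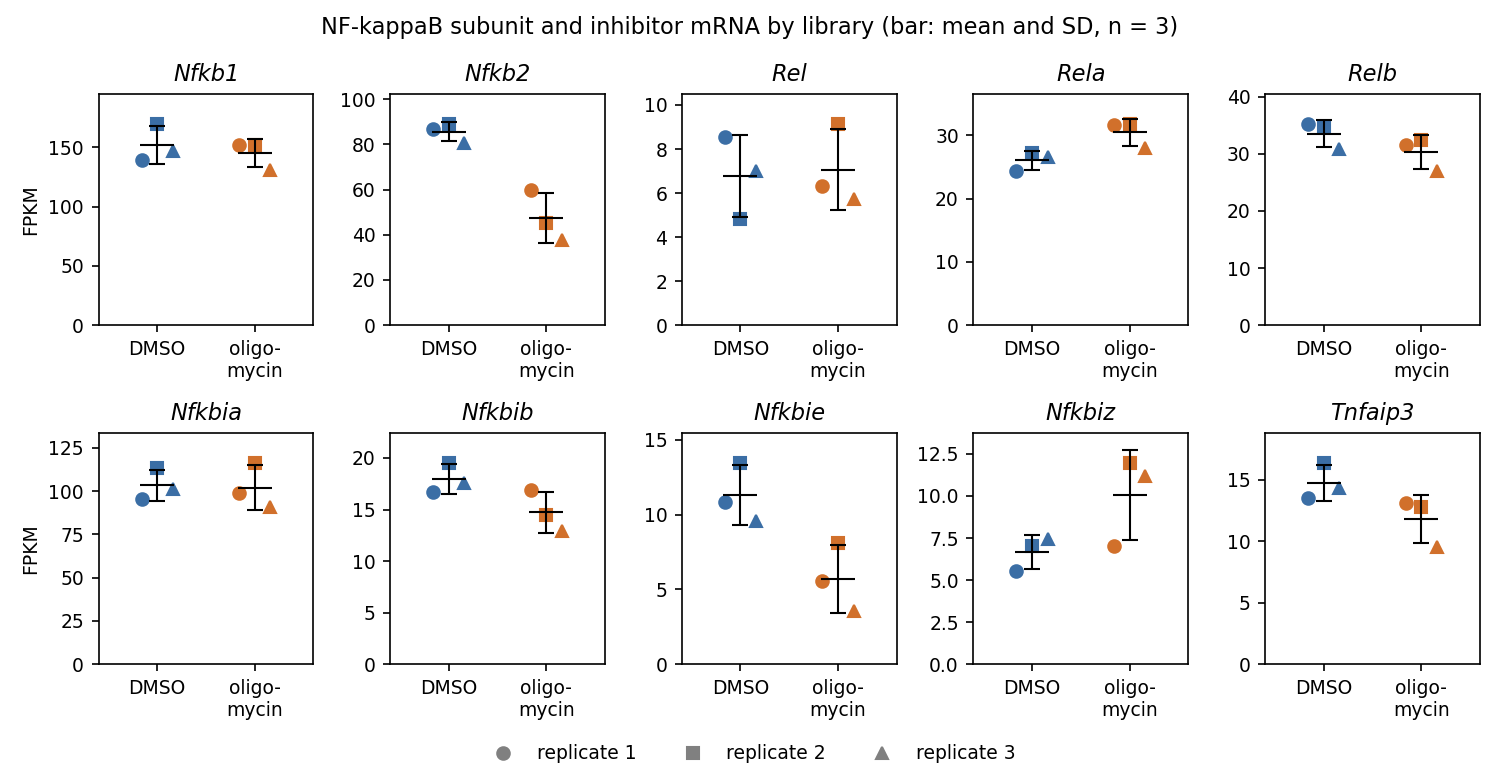
FPKM of the 10 genes in each library, in 1 panel per gene with its own linear axis from 0. DMSO libraries are blue, oligomycin libraries orange, symbols give the column number of the library, and bars show mean and SD (n = 3). Nfkb2 and Nfkbie stand lower in all 3 oligomycin libraries, while the groups of Nfkb1 and Nfkbia overlap.

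**Figure D2:**
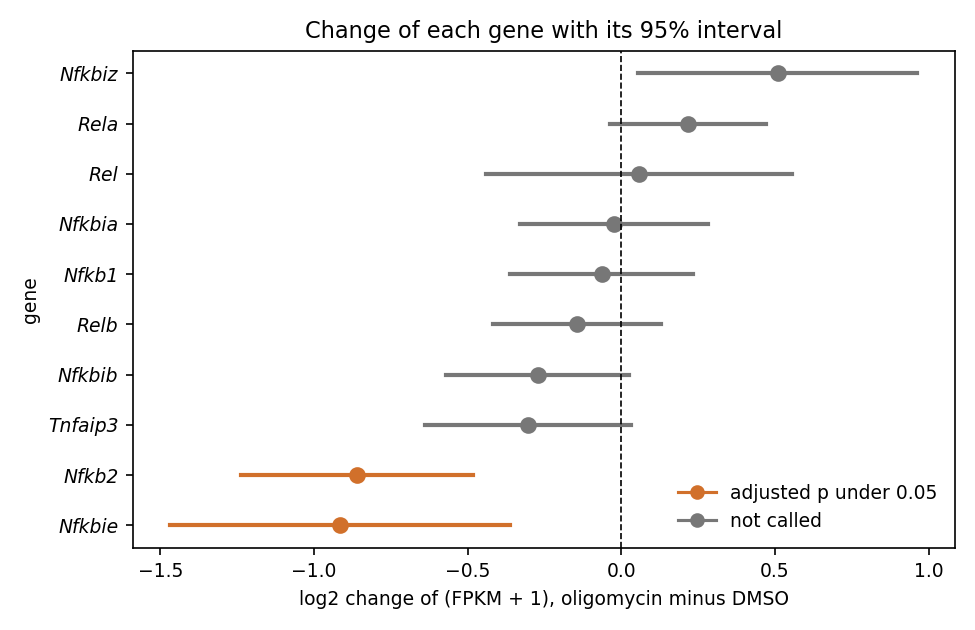
Fitted log2 change of (FPKM + 1), oligomycin minus DMSO, with the 95% interval from limma, 1 line per gene. The intervals of Nfkb2 and Nfkbie (orange, adjusted p under 0.05) lie below 0 and those of the 8 genes in grey, not called, include 0 or, for Nfkbiz, lie just above it.

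Promoter windows of the genes are shown because NF-kappaB is known to act on several of its own genes, and because 2 of them fell while Nfkbia, also a known NF-kappaB target, was not called. RefSeq windows on GRCm38.p6 were found for 7 of the 10 genes (10 windows, since Nfkb2 had 3 starts and Tnfaip3 had 2). Windows for Nfkb1, Relb and Nfkbiz were not among them. The 250 bases before each start were searched on both strands for the kappaB consensus motif, a degenerate motif of 10 bases given here by name. It occurred in 7 of the 10 windows and in 5 of the 7 genes (Nfkb2, Nfkbia, Nfkbie, Rel and Tnfaip3), and in 3.90% of all 32851 RefSeq windows of the same length. The windows of Nfkbib and Rela had no match. A match is a description of the letters and not of a bound site. Matches lay before called and uncalled genes, and their part in the changes was not tested. The window before the first Nfkb2 start, at base 46304737 of chromosome 19, held 3 matches, 2 of which overlap each other, and the windows before the second and the third Nfkb2 start held 1 each, at 236 and 225 bases before the start. 3 windows are printed 5′ to 3′ on the strand of the gene, with the kappaB match in capitals. They are those of the 2 genes that fell and of Nfkbia for comparison, and for Nfkb2 the window before the second start, which overlaps no UTR annotated in GENCODE M21. The Nfkb2 window lies at chr19:46305445-46305694 on the plus strand, that of Nfkbie at chr17:45555450-45555699 on the plus strand, with the match at 106 bases, and that of Nfkbia at chr12:55492648-55492897 on the minus strand, with the match at 29 bases.
Nfkb2: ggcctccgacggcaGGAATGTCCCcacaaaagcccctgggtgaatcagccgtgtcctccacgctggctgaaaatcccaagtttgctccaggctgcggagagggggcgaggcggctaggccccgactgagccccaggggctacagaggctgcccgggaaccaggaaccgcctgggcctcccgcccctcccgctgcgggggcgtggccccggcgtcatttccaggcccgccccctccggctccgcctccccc
Nfkbie: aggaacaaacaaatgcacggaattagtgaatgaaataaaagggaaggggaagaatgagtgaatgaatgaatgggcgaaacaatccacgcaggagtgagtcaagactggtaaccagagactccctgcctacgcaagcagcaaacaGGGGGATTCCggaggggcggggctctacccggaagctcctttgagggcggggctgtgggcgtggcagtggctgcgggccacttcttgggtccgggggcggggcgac
Nfkbia: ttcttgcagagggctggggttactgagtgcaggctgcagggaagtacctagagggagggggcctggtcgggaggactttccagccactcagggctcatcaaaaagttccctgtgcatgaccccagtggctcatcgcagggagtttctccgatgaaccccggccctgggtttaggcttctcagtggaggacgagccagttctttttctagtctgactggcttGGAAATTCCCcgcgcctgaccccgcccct
The windows of Nfkbie and Nfkbia each hold 1 match, and the 3 windows of Nfkb2 hold 3, 1 and 1.

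Among the subunits, Nfkb2 (XLOC_010143, chromosome 19, 46304737 to 46327156, GRCm38) was the one that fell. It encodes p100, which is both the precursor of p52 and an inhibitor of other Rel proteins. Its level was 86.8, 89.1 and 80.8 FPKM with DMSO and 59.6, 45.04 and 37.7 FPKM with oligomycin. All 3 oligomycin values lie well below the lowest DMSO value, and they spread more (SD 11.2, against 4.31 with DMSO). The log2 change was -0.86 (SE 0.17, 95% interval -1.24 to -0.48, adjusted p = 0.00624), and the adjusted p ran from 0.00123 to 0.0245 over the 15 alternative settings. GENCODE M21 places Nfkb2 at 46304320 to 46312385, so the row's interval runs well past the end of the gene and takes in Psd, a coding gene on the opposite strand whose end overlaps that of Nfkb2. No source at hand gives the strand of the libraries or the transcripts counted in the row, so reads of Psd anywhere in that interval cannot be told apart from those of Nfkb2, and Psd was not analysed here.

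Nfkb1 (XLOC_013573, chromosome 3, 135584655 to 135691547), which encodes p105 and its product p50, was the most abundant of the 10 transcripts. It was measured at 139, 170.0 and 147 FPKM with DMSO and at 152, 152 and 131 with oligomycin, so the groups overlap. The log2 change was -0.06 (95% interval -0.36 to 0.23, adjusted p = 0.731), and its sign turned under quantile normalization (0.14) and when libraries were scaled without small RNA rows (0.035). Rela (XLOC_009869, chromosome 19, 5637490 to 5648130), the gene of the main transactivating subunit p65, gave 24.3, 27.3 and 26.6 FPKM with DMSO and 31.6, 31.8 and 28.0 with oligomycin. Every oligomycin value exceeds every DMSO value, but the difference was not called (log2 change 0.22, interval -0.04 to 0.47, adjusted p = 0.169).

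Relb (XLOC_018737, chromosome 7, 19606222 to 19629438), the p52 partner, was measured at 35.3, 34.6 and 30.8 FPKM with DMSO and at 31.5, 32.5 and 27.0 with oligomycin. The groups overlap, and the log2 change of -0.14 was not called (interval -0.42 to 0.13, adjusted p = 0.386). Rel (XLOC_003301, chromosome 11, 23741729 to 23770970) encodes c-Rel, the subunit best known for its role in lymphocyte activation. It had the lowest subunit level, 8.54, 4.82 and 6.99 FPKM with DMSO and 6.31, 9.15 and 5.74 with oligomycin. Its libraries spread widely within both groups, and the log2 change of 0.06 has an interval from -0.44 to 0.56 (adjusted p = 0.859). Leaving out DMSO replicate 2 turned it to -0.14, and leaving out oligomycin replicate 2 to -0.12.

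Nfkb2 made up a smaller part of the summed subunit mRNA with oligomycin. The 5 subunits summed to 304 ± 19.0 FPKM with DMSO and 261 ± 27.2 with oligomycin (SD, n = 3). Of that sum Nfkb2 made up 29.5%, 27.3% and 27.6% with DMSO and 21.2%, 16.6% and 16.4% with oligomycin. The share of Nfkb1 was 49.9% ± 2.47 and 55.8% ± 1.57 and that of Rela 8.58% ± 0.453 and 11.7% ± 0.482, neither with overlap between the groups, while Relb (11.1% ± 0.821 and 11.7% ± 0.390) and Rel (2.26% ± 0.722 and 2.71% ± 0.594) overlapped. Shares of a sum are tied to each other, so a lower share of Nfkb2 raises the rest, and no test was made of them. As ratios within a library, which a common scaling factor of a library cannot alter, Nfkb2 per Nfkb1 was 0.625, 0.524 and 0.549 with DMSO and 0.392, 0.295 and 0.288 with oligomycin. Nfkb2 per Relb, whose products pair in the non-canonical route, was 2.55 ± 0.0828 and 1.56 ± 0.288. These ratios were chosen after the values had been seen.

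**Figure D3:**
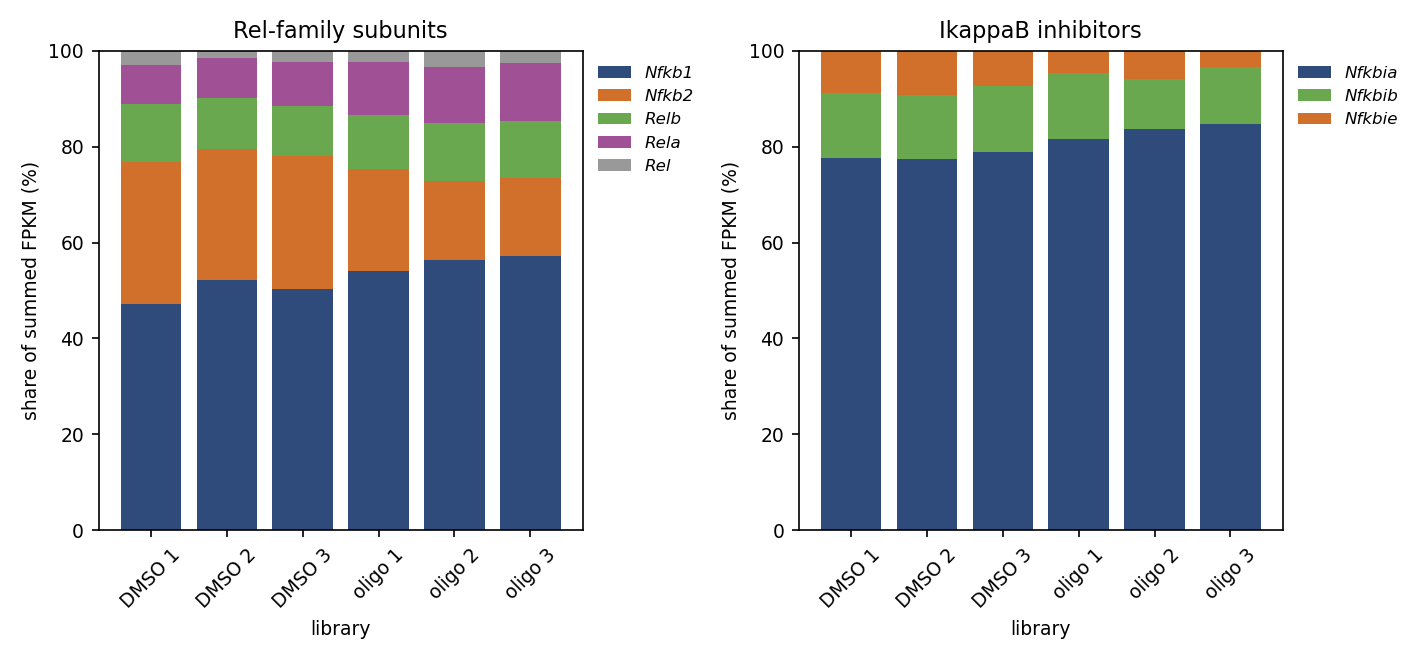
Share of each gene in the summed FPKM of the 5 Rel-family subunits (left) and of the IkappaB genes Nfkbia, Nfkbib and Nfkbie (right), as stacked bars from 0 to 100% for each of the 6 libraries. The orange Nfkb2 segment takes 27.3% to 29.5% with DMSO and 16.4% to 21.2% with oligomycin, and the orange Nfkbie segment 7.43% to 9.23% and 3.31% to 5.83%.

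Of the classical IkappaB genes, whose products hold Rel dimers in the cytoplasm, Nfkbie fell. Nfkbie (XLOC_008569, chromosome 17, 45555716 to 45563168) was measured at 10.8, 13.5 and 9.55 FPKM with DMSO and at 5.54, 8.09 and 3.55 with oligomycin. The groups do not overlap, although the spread within each is large next to the gap between 9.55 and 8.09. The log2 change was -0.91 (SE 0.24, interval -1.47 to -0.36, adjusted p = 0.0229). Leaving out DMSO replicate 1 gave an adjusted p of 0.0575, leaving out DMSO replicate 2 gave 0.0727 and leaving out oligomycin replicate 3 gave 0.0550, so each of these ended the call. The log2 changes were then -0.93, -0.79 and -0.66.

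Nfkbia (XLOC_004628), the gene of IkappaBα, was the most abundant inhibitor, at 95.7, 113 and 101 FPKM with DMSO and 99.1, 116 and 90.6 with oligomycin. The groups lie on top of each other, with a log2 change of -0.02 (interval -0.33 to 0.28, adjusted p = 0.907) that was 0.16 under quantile normalization and 0.075 when scaled without small RNA rows. Its row carries the interval 55280814 to 55492647 of chromosome 12, shared with the rows of Psma6, Ppp2r3c and 1110008L16Rik, while GENCODE M21 places Nfkbia itself at 55489410 to 55492647. How reads in that interval were divided among these rows is not given in the sources at hand. Nfkbib (XLOC_018876, chromosome 7, 28756174 to 28766524), which encodes IkappaBβ, gave 16.7, 19.5 and 17.6 FPKM with DMSO and 16.8, 14.4 and 12.9 with oligomycin. Only oligomycin replicate 1 falls within the DMSO range, and the log2 change of -0.27 was not called (interval -0.57 to 0.02, adjusted p = 0.144). That row's interval also holds the coding gene Ccer2.

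The 3 classical IkappaB genes together gave 133 ± 12.0 FPKM with DMSO and 122 ± 15.97 with oligomycin. Set against the sum of the subunits of the same library, this came to 0.436 ± 0.0150 with DMSO and 0.470 ± 0.0403 with oligomycin, with overlap (0.419, 0.448 and 0.440 against 0.432, 0.513 and 0.466). Within the IkappaB sum, Nfkbie held 8.49% ± 0.939 with DMSO and 4.56% ± 1.26 with oligomycin, and Nfkbia 78.0% ± 0.798 and 83.3% ± 1.57. Nfkbie per Nfkbia was 0.113, 0.119 and 0.0942 with DMSO and 0.0559, 0.0695 and 0.0391 with oligomycin, a pair chosen after the values had been seen.

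Nfkbiz (XLOC_008019, chromosome 16, 55811377 to 55838641) encodes IkappaBζ, a nuclear IkappaB that acts as a coactivator and is known to promote Il17a expression in Th17 cells. It was measured at 5.51, 7.02 and 7.45 FPKM with DMSO and at 7.02, 12.0 and 11.2 with oligomycin. Oligomycin replicate 1 lies within the DMSO range and the other 2 libraries lie above it. The log2 change was 0.51 (SE 0.20, interval 0.05 to 0.96) and did not pass the adjusted threshold (adjusted p = 0.0864), whereas without oligomycin replicate 1 it was 0.72 (adjusted p = 0.0117). Il17a in the same libraries was 261, 230.4 and 248 FPKM with DMSO and 15.4, 11.5 and 10.8 with oligomycin.

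Tnfaip3 (XLOC_001877, chromosome 10, 19000910 to 19015410) encodes A20, which removes activating ubiquitin chains upstream of IKK. Its values were 13.5, 16.4 and 14.3 FPKM with DMSO and 13.1, 12.8 and 9.55 with oligomycin. The groups do not overlap, but 13.5 and 13.1 nearly meet, and the log2 change of -0.30 was not called (SE 0.15, interval -0.64 to 0.03, adjusted p = 0.1497).

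By level, the 10 transcripts kept a similar order in both groups. With DMSO it ran Nfkb1, Nfkbia, Nfkb2, Relb, Rela, Nfkbib, Tnfaip3, Nfkbie, Rel, Nfkbiz, and among neighbours only Rel (6.78 ± 1.87) and Nfkbiz (6.66 ± 1.02) overlapped in FPKM. With oligomycin the first 3 places were the same and without overlap, with Nfkb2 at 47.5 ± 11.2 FPKM after 85.6 ± 4.31 with DMSO. Rela and Relb (30.5 ± 2.14 and 30.3 ± 2.94) then overlapped, as did each neighbouring pair from Nfkbib down to Nfkbie, which moved from place 8 to place 10. Among all tested genes Nfkb1 lay above 94.9% of genes with DMSO and above 95.4% with oligomycin, and Nfkb2 above 90.0% and 83.0%.

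The profile of Nfkb2 over the 6 libraries, as log2(FPKM + 1) centred on its mean, was matched most closely by Lig1, the gene of DNA ligase 1, and Atp5g3, which encodes a subunit of the ATP synthase, among 8036 genes of at least 5 FPKM. Their root mean square differences from it were 0.0613 and 0.0747 on the log2 scale. For Nfkbie the nearest were Myo1g, a myosin gene of blood cells, and Gpr132, a gene of a G protein-coupled receptor, at 0.138 and 0.142. Myo1g was measured at 69.5, 83.0 and 66.3 FPKM with DMSO and at 39.4, 57.8 and 34.4 with oligomycin. With 6 libraries in 2 groups such likeness is a description of these libraries.

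Of the receptors and ligands that feed the pathway, 7 of 15 tested genes fell and 1 rose (of 18 listed, with a median log2 change of -0.23). Over all tested genes 16.1% were called lower and 14.0% higher. Tnfrsf9, Tnfrsf18, Tnfrsf4 and Tnfrsf8, receptors of the TNF family known as 4-1BB, GITR, OX40 and CD30, had log2 changes of -3.78, -1.80, -1.52 and -2.33. Tnfrsf9 was at 186, 131 and 86.1 FPKM with DMSO and at 7.00461, 12.5 and 6.63 with oligomycin, a 15.4-fold lower mean (adjusted p = 8.68e-05). Il1r1, the IL-1 receptor, and Tnfsf11, the gene of RANKL, also fell, with log2 changes of -2.11 and -1.304, and Cd28 with -0.53. The one that rose was Tnfsf8, the gene of CD30 ligand, from 3.22 ± 0.957 to 12.1 ± 6.44 FPKM (adjusted p = 0.00984). Tnfsf11 lost its call on leaving out replicate 3 of DMSO (adjusted p = 0.0532) or of oligomycin (0.0540). Cd28 lost its call without DMSO replicate 1 (0.138) or 3 (0.118), without oligomycin replicate 1 (0.0544) or 2 (0.0989), under quantile normalization (0.147), when scaled without small RNA rows (0.0867) or under median centring (0.0584). A second gene rose without DMSO replicate 2 or oligomycin replicate 1, under quantile normalization and when scaled without small RNA rows, which made the count 2.

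In the IKK complex with its adaptors and upstream kinases, 6 of 27 tested genes rose and 0 fell, and the median log2 change was 0.22. Over all tested genes 14.0% were called higher and 16.1% lower. In all, 22.2% of the list were called, against 30.2% of all tested genes. At an unadjusted p under 0.05, 1 gene of the list had a lower level, Bcl10 (log2 change -0.31, adjusted p = 0.0639), named after its values had been seen. Map3k14, the gene of NIK, which has p100 processed, was at 6.84, 9.41 and 7.86 FPKM with DMSO and at 13.7, 19.2 and 14.9 with oligomycin. All oligomycin values exceed the DMSO values, and the mean was 1.99-fold higher (log2 change 0.90, SE 0.16, adjusted p = 0.00442). In the same libraries Nfkb2, the substrate's gene, stood lower, as given above. Traf5, a TNF receptor adaptor, was at 4.67, 6.34 and 5.01 FPKM and at 8.81, 16.7 and 13.3 (log2 change 1.105, adjusted p = 0.00660). Map3k14 and Traf5 were called under all 15 alternatives, with adjusted p up to 0.0195 and 0.0269.

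Further genes of that list which rose included Ikbkg, the regulatory IKK subunit NEMO, Ikbke, an IKK-related kinase, and Malt1, which carries the signal from the T cell receptor to IKK. Malt1, the most abundant of them, went from 205 ± 5.29 to 272 ± 6.84 FPKM (log2 change 0.41, adjusted p = 0.0280). Ikbkg changed by 0.45 and Ikbke by 1.07 on the log2 scale, and Ikbke spread from 7.73 to 24.3 FPKM among the oligomycin libraries. These calls depended on single libraries. Ikbkg lost its call on leaving out DMSO replicate 1 (adjusted p = 0.0653) or 3 (0.0799). For Malt1 and Ikbke the call ended on leaving out any single library except the first of oligomycin (adjusted p from 0.0523 to 0.121), and Ikbke was not called with robust empirical Bayes (0.0606). The list's count of genes that rose was 2 without DMSO replicate 1 or 3, 3 without DMSO replicate 2 or without either of oligomycin replicates 2 and 3, and 8 without oligomycin replicate 1.

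Among ubiquitin editors and the machinery that degrades IkappaB, 1 of 20 tested genes was called higher and 1 lower. That was 10.0% of the list, against 30.2% of all tested genes. In 7 of the 20 the groups did not overlap, which held for 47.3% of all tested genes. Cyld, a deubiquitinase that restrains NF-kappaB as A20 does, went from 21.5 ± 1.18 to 28.4 ± 2.41 FPKM (adjusted p = 0.0338) and Cul1, the scaffold of the ligase that marks IkappaB, from 48.5 ± 0.836 to 38.5 ± 2.90 (adjusted p = 0.0494). Cyld was called only with all libraries or without oligomycin replicate 1 among the settings that leave a library out (adjusted p from 0.0699 to 0.116 in the others), and Cul1 was not called in 10 of the 15 alternatives. Tnip2, which encodes an A20-binding protein, stood at 39.2 ± 12.0 and 58.4 ± 8.62 FPKM (adjusted p = 0.0703), and was called without DMSO replicate 2 (0.0314), under quantile normalization (0.0379) and when scaled without small RNA rows (0.0389).

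Among 14 further IkappaB genes and nuclear regulators, Crebbp, the gene of the coactivator CBP, rose and Ppp4c, a phosphatase subunit, fell. That was 14.3% of the list, against 30.2% of all tested genes. Crebbp went from 8.97 ± 1.07 to 16.7 ± 4.74 FPKM (adjusted p = 0.0144, and 0.0523 without DMSO replicate 1). Ppp4c went from 163 ± 3.48 to 117 ± 11.8 FPKM (adjusted p = 0.0184), and lost its call on leaving out DMSO replicate 1 (0.0591), 2 (0.0547) or 3 (0.0785), or oligomycin replicate 3 (0.0637), or under quantile normalization (0.0561). Commd1, a regulator of RelA turnover, was at 60.1 ± 3.32 and 46.0 ± 7.13 FPKM (adjusted p = 0.0560, and 0.0118 without oligomycin replicate 1 or 0.0473 with robust empirical Bayes). The genes that fell numbered 3 without oligomycin replicate 1 and 2 without oligomycin replicate 2. The atypical IkappaB genes Bcl3 and Nfkbid, named after their values had been seen because they are the nearest relatives of Nfkbiz, were not called. Bcl3 was at 25.8, 40.6 and 33.9 FPKM with DMSO and at 17.9, 30.9 and 19.8 with oligomycin (adjusted p = 0.0984, and 0.0183 without oligomycin replicate 2), and Nfkbid at 23.7 ± 1.94 and 24.3 ± 2.90.

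Genes known as NF-kappaB targets moved in both directions. Of 25 tested genes 4 rose and 7 fell, with a median log2 change of -0.11. The shares of the list were 16% and 28%, against 14.0% and 16.1% of all tested genes. Ier3, an early response gene, fell the most, from 35.3, 44.0 and 21.9 FPKM to 3.57, 4.27 and 3.84 (log2 change -2.77, adjusted p = 0.000103). Bcl2l1, which encodes the survival protein Bcl-xL, fell from 75.7 ± 3.63 to 42.2 ± 6.10 FPKM (adjusted p = 0.00230), and the cytokine and receptor genes Il2, Ccl20 and Il2ra fell by 1.39, 0.97 and 0.81 on the log2 scale. Traf1 and Birc3, genes of TNF receptor signalling, fell by 1.14 and 0.35. Cd69, an activation marker that keeps T cells in tissues, rose from 37.7, 35.6 and 36.4 FPKM to 109, 96.4 and 107 (log2 change 1.48, adjusted p = 6.82e-05). Csf2, the gene of GM-CSF, rose by 1.68, and the survival genes Cflar and Bcl2a1b by 0.75 and 0.60. Reads of Bcl2a1b can be shared with its near-identical copies, so its value is uncertain.

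The calls of Cd69, Ier3, Bcl2l1, Cflar, Csf2, Ccl20, Il2 and Il2ra held in all 15 alternatives. Bcl2a1b lost its call on leaving out DMSO replicate 2 (adjusted p = 0.0596) or 3 (0.0605). Traf1 lost its call on leaving out DMSO replicate 1 (0.0856) or 2 (0.0917) or the third oligomycin library (0.0511), and with robust empirical Bayes (0.0543). Birc3 was not called in 7 of the 15 alternatives (adjusted p from 0.0540 to 0.112), which include leaving out any single library except the first of oligomycin. In each list the share called can be read against the 30.2% of all tested genes: 53.3% of the receptors and ligands, 44.0% of the targets, 22.2% of the IKK list, 14.3% of the further regulators and 10.0% of the ubiquitin list. The lists were chosen with earlier results of these data known, so a share above 30.2% is no independent result. No test of these shares was made.

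**Figure D4:**
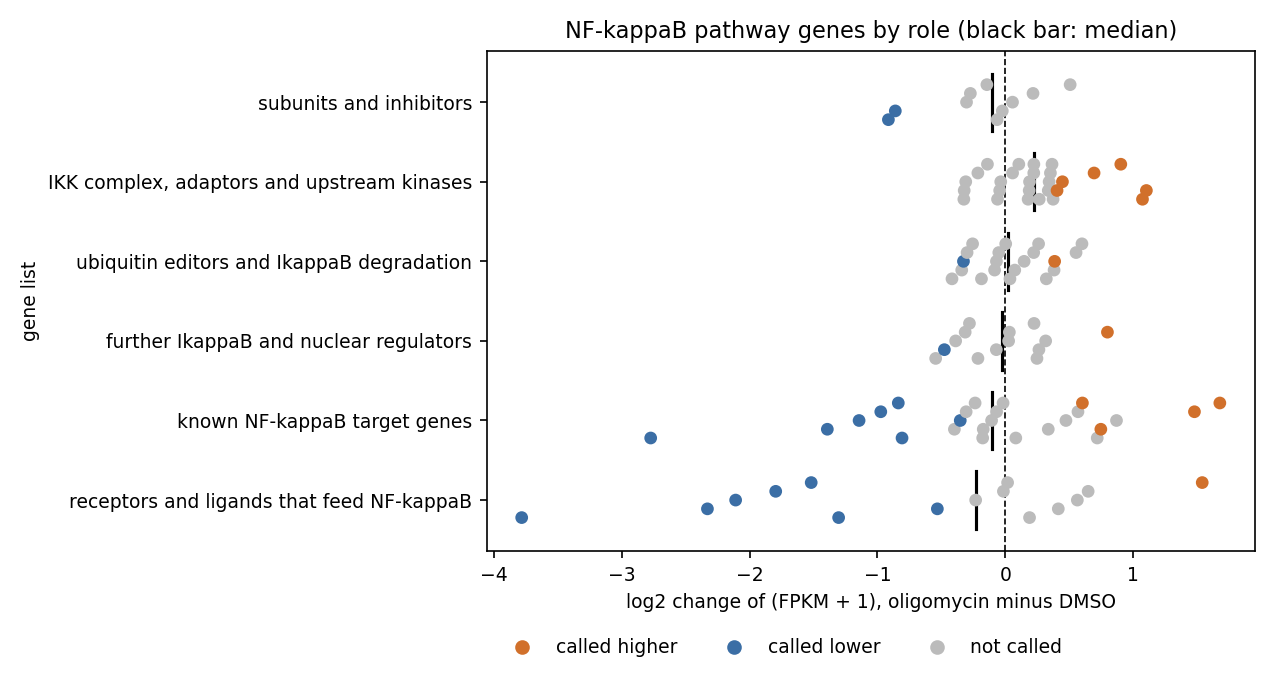
Fitted log2 change of (FPKM + 1), oligomycin minus DMSO, for each tested gene of the NF-kappaB pathway, by role. Points are genes, orange called higher, blue called lower and grey not called, spread vertically for legibility, and black bars are medians. Calls among receptors and ligands are mostly lower, those of the IKK list are all higher, and those of the targets go both ways.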

How the data were processed

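Per the submitters' processing notes, the tools were Cuffdiff (version 2.2.1.3), Cuffnorm (version 2.2.1.1), Cufflinks (version 2.2.1.0) and TopHat2 (version 2.1.0), with the build GRCm38 (mm10). Annotation, strand, filters and scaling are not given in the sources at hand. The deposited values are FPKM, 1 per gene row and library, for 10041 rows. FPKM are not counts, so no count test was run. Columns name a group and a number that is on no sample title, so each was mapped to its group only, and replicate numbers here are column numbers. Whether the libraries came from separate animals is not stated. The p-values set the group difference against the spread between these libraries, which may not be that between animals.

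The test was limma's (version 3.58.1, under R 4.3.3) on log2(FPKM + 1), with an intensity trend, on rows of at least 1 FPKM in at least 3 libraries (9986 rows), 2-sided, with Benjamini-Hochberg adjustment over all of them and a threshold of 0.05. Changes on this scale understate those of low genes. Errors are SD over 3 libraries or the SE of the fit, and intervals cover 95%. Small RNA rows (138) are those whose genes are all small RNA genes in RefSeq or GENCODE M21. Starts were read as counted from 0 and are printed from 1, since adding 1 matched 2386 GENCODE starts and leaving them matched 327. The fit was tested on simulated data.

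The members and the 5 pathway lists were chosen with earlier results of these data known. Named were all members, genes of each list with an adjusted p under 0.05 and at least its 3 smallest p-values, the 2 nearest profiles of each called member (among genes whose higher group mean reached 5 FPKM), and single values of Il17a and of marker genes. Bcl3, Nfkbid and Bcl10 lie outside this rule, and some genes it names are not reported here. Of the listed genes, Otulin was matched through its RefSeq synonym and Irak1 through a row of several genes. Alternatives were other filters, pseudocounts of 0.1 and 0.5, 3 other scalings, 2 other variance models and leaving out each library.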

Additional observations from a re-analysis of the deposited data

How the results depend on the processing

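No paired analysis was possible because the table's columns carry none of the numbers that the sample titles share between the groups. Nfkb2 fell under all 15 alternatives. Leaving out 1 library moved the counts over all tested genes to between 780 and 1387 higher and between 989 and 1861 lower, against 1403 and 1610. Of the 10 NF-kappaB genes, between 0 and 1 rose and between 1 and 2 fell: Nfkbie lost its call on leaving out DMSO replicate 1 or 2, or oligomycin replicate 3, and Nfkbiz was called higher without oligomycin replicate 1. The IKK list then had between 2 and 8 genes higher, the ubiquitin list between 0 and 1 higher and between 0 and 1 lower, the further regulators between 0 and 1 higher and between 0 and 3 lower, and the receptors and ligands between 1 and 2 higher. Log2 changes near 0 turned their sign: Nfkb1 ran from -0.13 to 0.019, Rel from -0.14 to 0.22, Nfkbia from -0.12 to 0.058 and Nfkbid from -0.059 to 0.096.

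Quantile normalization gave Nfkb1 0.14 and Nfkbia 0.16, and scaling without small RNA rows gave 0.035 and 0.075, with a median over all genes of 0.09 in the latter. Over all tested genes the former called 1549 higher and 1444 lower and the latter 1863 and 1318, against 1403 and 1610 in the main fit. The shares of 14.0% and 16.1% set beside the lists thus hold for the main fit, and more genes rose than fell under these 2 scalings. Under either, 2 genes of the ubiquitin list and 2 of the receptors and ligands were higher and 0 of the ubiquitin list lower, a count that was also 0 under median centring and without the intensity trend. The further regulators had 0 genes lower under quantile normalization and 2 with robust empirical Bayes. With Nfkbiz and Tnfaip3 added to the 3 classical IkappaB genes, the mean ratio to subunit FPKM was 0.506 with DMSO and 0.555 with oligomycin. The libraries of the groups overlapped in this ratio, as with the classical genes alone (0.419 to 0.448 and 0.432 to 0.513). Neither added gene encodes an IkappaB that holds Rel dimers in the cytoplasm. The cause of these shifts was not tested. Depth is unknown, which limits what can be said of the low transcripts Rel, Nfkbiz and Nfkbie.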

Other observations

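The libraries of a group differed in a way that many of the 10 genes shared. Oligomycin replicate 3 was the lowest of its group for 9 of the 10 genes, all but Nfkbiz, while it was the lowest for 36.8% of all tested genes. Oligomycin replicate 2 was the highest of its group for 7 genes (Nfkb1, Rel, Rela, Relb, Nfkbia, Nfkbie and Nfkbiz), against 40.2% of all tested genes. DMSO replicate 2 was the highest of its group for 7 genes (Nfkb1, Nfkb2, Rela, Nfkbia, Nfkbib, Nfkbie and Tnfaip3), against 44.2% of all tested genes, and the lowest for Rel.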
